A study of Mus musculus with 29 samples.

Results

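Colonic expression of the EGF receptor family was followed through acute colitis, repeated relapse and recovery in mice given dextran sodium sulphate (DSS), a compound that injures the colonic epithelium when taken in drinking water. The genes were chosen by name: the ligands Areg, Ereg, Hbegf, Tgfa, Btc and Egf, and the receptors Egfr, Erbb2 and Erbb3. For 8 of the 9, the array annotation lists a probe set (a group of short DNA probes) with that gene as its single symbol, and each of these 8 has 1 such probe set among the 35511 of the array. No such probe set is listed for Areg, which is not analysed here. All mice were female C57BL6J. Their labelled age of 6 weeks is, per the study's methods, the age at the start, and the mice were matched in age at sacrifice. Acute colitis (4 mice) was taken after 7 days of DSS without recovery. A cycle was 7 days of DSS and then 2 weeks of normal drinking water, and 5 mice each were studied after 1, 2 and 3 cycles. Another 5 mice had 2 cycles and a further 3 weeks of recovery, and 5 control mice drank normal water. The study's methods give a higher percentage of DSS for the later cycles than for the initial administration. Groups with 2 or 3 cycles, including recovery, therefore differ from acute colitis and 1 cycle in DSS dose as well as in cycle number. The part of the dose in these comparisons was not tested. Each mouse gave 1 array, made from a piece of colon, taken per the labels where infiltration was strongest. Letters and digits name the mice: A and L are controls, B and C acute colitis, J and K 1 cycle, D and E 2 cycles, F and G 3 cycles, and M and N recovery. All comparisons with control share the same 5 control arrays.

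Ligands of this family are made as membrane-bound precursors. They are cut free by proteases such as ADAM17, and bind the EGF receptor on the same or neighbouring cells. Tgfa, Egf, Areg and Ereg bind the EGF receptor, while Hbegf, Btc and Ereg can also bind ErbB4. ErbB2 has no known ligand of its own and acts as a partner, and ErbB3 binds neuregulins and has very weak kinase activity. Signals from these receptors run through ERK, PI3 kinase and STAT3, and in the gut they support proliferation, migration and restitution of the epithelium after injury.

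In the RefSeq annotation of GRCm38.p6, Epgn, Ereg, Areg and Btc follow each other in this order on chromosome 5, with no other protein-coding gene between them. Tgfa lies on chromosome 6, Egf on chromosome 3, Egfr and Erbb2 on chromosome 11, and Erbb3 on chromosome 10. The promoters of Tgfa, Erbb2 and Epgn are shown because these genes changed in acute colitis and the RefSeq table lists a promoter for them, each as 250 bases before and 50 bases after the start of the gene, on the + strand. The windows are chr6:86194972-86195271 for Tgfa, chr11:98412234-98412533 for Erbb2 and chr5:91027267-91027566 for Epgn. Capitals mark GC boxes (GGGCGG on either strand), of which the Tgfa window holds 2 and the others 0.
Tgfa: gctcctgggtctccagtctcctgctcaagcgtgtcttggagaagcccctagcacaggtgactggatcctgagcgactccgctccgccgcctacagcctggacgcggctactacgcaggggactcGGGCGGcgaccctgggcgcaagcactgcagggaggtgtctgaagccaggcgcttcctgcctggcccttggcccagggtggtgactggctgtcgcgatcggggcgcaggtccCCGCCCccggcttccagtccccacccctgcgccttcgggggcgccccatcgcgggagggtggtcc
Erbb2: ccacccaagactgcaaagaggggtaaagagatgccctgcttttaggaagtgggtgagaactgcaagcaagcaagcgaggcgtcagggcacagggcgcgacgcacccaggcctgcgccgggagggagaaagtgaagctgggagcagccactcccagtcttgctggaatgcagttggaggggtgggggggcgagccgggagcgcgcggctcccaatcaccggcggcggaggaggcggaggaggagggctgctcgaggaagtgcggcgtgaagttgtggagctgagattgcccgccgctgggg
Epgn: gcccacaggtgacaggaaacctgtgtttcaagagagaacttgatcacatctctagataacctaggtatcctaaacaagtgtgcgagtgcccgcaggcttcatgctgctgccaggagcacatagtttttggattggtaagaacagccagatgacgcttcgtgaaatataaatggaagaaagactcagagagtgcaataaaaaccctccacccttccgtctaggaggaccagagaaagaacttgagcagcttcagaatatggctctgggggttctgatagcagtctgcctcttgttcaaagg
A GC box stood in 35.7% of the 32851 promoters of the table. An AP-1 motif (TGANTCA, both strands) stood in 7.81% of them and a CRE motif (TGACGTCA, both strands) in 1.79%. Neither was found in these 3 windows. The Tgfa window had a GC content of 70.7%, against 47.3% for Epgn.

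Values are log2 expression values, so that a difference of 1 is a 2-fold change. Groups were compared with limma in 1 fit of all 6 groups, and a gene was called when its p, adjusted by Benjamini-Hochberg for the whole array, was under 0.05. A stricter rule also asked for a fold change above 2. The array medians lay between 6.02 and 6.14, and pairs of arrays correlated at 0.943 to 0.992 over their probe sets. The mean of 11 colon epithelium markers was 10.84 to 11.68 in every array, and that of 11 squamous epithelium markers was 5.35 to 5.55 in controls. An unannotated probe set divides the arrays into 14 with a low value (at most 8.14) and 15 with a high one (at least 11.09). All control and 1-cycle arrays were low and all 3-cycles and recovery arrays high, while acute colitis and 2 cycles held both. What separates the 2 sets is not given in the sources used here. Since no control was high, 3 cycles and recovery could be set against control within neither set, and a fit with the 2 sets as a covariate takes their difference from acute colitis and 2 cycles.

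**Figure D1:**
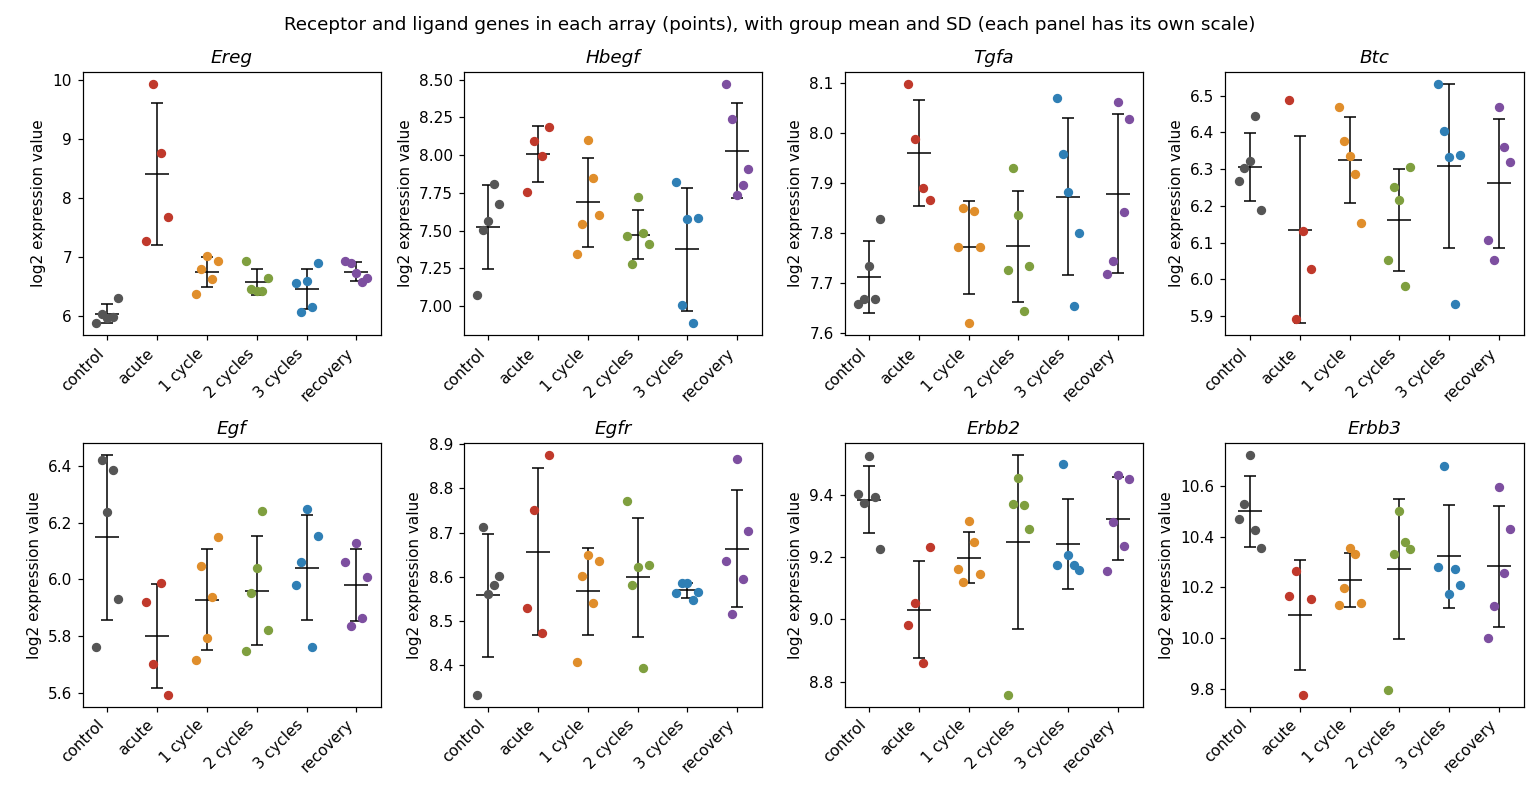
Log2 expression value of each measured gene (y axis, its own scale in each panel) in the 6 groups (x axis), with 1 point per array and the group mean and SD as bars. Ereg in acute colitis lies between 7.26 and 9.94, above every other array.

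In acute colitis, Ereg rose while the receptors Erbb2 and Erbb3 fell and Tgfa rose slightly. Of the 8 genes, 4 were called, 2 higher and 2 lower, and 1 passed the stricter rule. Over all probe sets, 22.9% were called in this comparison (11.4% higher and 11.6% lower) and 2.77% by the stricter rule. The median log2 fold change of the 8 genes was -0.04, against 0.04 over all probe sets. Values of 3 of the 8 genes did not overlap between the groups, nor did those of 17.1% of all probe sets.

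Ereg encodes epiregulin, a ligand with a broad receptor range that activates EGFR and ErbB4. Its log2 values in acute colitis were 7.26 in B2, 9.94 in B3, 8.77 in B4 and 7.67 in C3, against 5.88, 6.03, 5.96, 5.98 and 6.30 in controls. The lowest acute array was above the highest control array, and the acute mice themselves spread over a far wider range than any other group. Ereg averaged 8.41 ± 1.20 in acute colitis (SD, n = 4) and 6.03 ± 0.16 in controls (SD, n = 5). The log2 fold change was 2.38 (standard error 0.31, 95% interval 1.75 to 3.02), a 5.21-fold rise with an adjusted p of 3.2e-06. That standard error rests on a spread shared by all 6 groups. With only the 2 groups compared in the fit, it was 0.45, and Ereg was still called (adjusted p = 0.00809 by limma). The control values lay close to the array medians, and the files hold no background level to judge them by. It was called with each of the 29 arrays left out in turn, with log2 fold changes of 1.87 to 2.76. Within the low arrays alone, which hold B2, B3 and all controls, it was 2.57 (adjusted p = 0.00525 by limma).

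Ereg was lower after the first recovery phase than in acute colitis, but still above the control range in every mouse. After 1 cycle its log2 values were 6.36, 6.79, 7.02, 6.62 and 6.92. This was below every acute array and above every control array. Tgfa also did not overlap between 1 cycle and acute colitis. The share of all probe sets without overlap was counted only for acute colitis against control (17.1%). Against acute colitis the log2 fold change of Ereg was -1.67 (standard error 0.31, 95% interval -2.30 to -1.03), which is 3.18-fold lower (adjusted p = 0.00172 by limma). Ereg was the 1 gene of the 8 called, where 5.74% of all probe sets were called and 0.696% by the stricter rule, and it passed both. This call was lost when the 2 groups were fitted alone (adjusted p = 0.149) and within the low arrays (log2 fold change -1.86, adjusted p = 0.146).

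In the later groups Ereg stayed in a narrow band. After 2 cycles its log2 values were 6.93, 6.46, 6.43, 6.42 and 6.65. After 3 cycles they were 6.55, 6.06, 6.60, 6.15 and 6.90, and after recovery 6.94, 6.89, 6.72, 6.57 and 6.64. Every array after 1 or 2 cycles and after recovery exceeded the highest control, while 3 cycles overlapped with controls. How many of all probe sets lacked overlap in these comparisons was not counted. In the fit of all groups, with its spread set in part by the acute mice, none of the 4 was called against control, and the log2 fold changes were 0.71, 0.55 and 0.42 after 1, 2 and 3 cycles and 0.72 after recovery (adjusted p = 0.104 to 0.33). With only the 2 groups compared in the fit, the standard error was 0.12 for 1 cycle, 0.11 for 2 cycles and 0.10 for recovery. Ereg was then called after 1 cycle (adjusted p = 0.00518), after 2 cycles (adjusted p = 0.0134) and after recovery (adjusted p = 0.00146), but not after 3 cycles (adjusted p = 0.0745). Such fits called 8.66% of all probe sets after 1 cycle, 7.38% after 2 cycles and 14.6% after recovery. In the fit of all groups, leaving out B3 alone brought a call after 1 cycle (adjusted p = 0.0244) and after recovery (adjusted p = 0.0162), and leaving out B2 brought one after recovery (adjusted p = 0.0499). With the 2 sets of arrays as a covariate, recovery exceeded control by 0.999 (standard error 0.43, adjusted p = 0.36) and 3 cycles did so by 0.70 (standard error 0.43, adjusted p = 0.529).

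Ordered by mean, Ereg ran from acute colitis (8.41 ± 1.20) through recovery (6.75 ± 0.16), 1 cycle (6.74 ± 0.26), 2 cycles (6.58 ± 0.22) and 3 cycles (6.45 ± 0.34) to control (6.03 ± 0.16). Neighbours between recovery and 3 cycles overlapped in their values. Recovery exceeded 2 cycles by 0.17 (95% interval -0.42 to 0.77), and 3 cycles differed from 1 cycle by -0.29 (95% interval -0.89 to 0.31).

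Markers of neutrophils and of monocytes and macrophages were high in acute colitis, as Ereg was, and those of smooth muscle low. The mean log2 value of 9 neutrophil markers was 5.42 in B2, 8.71 in B3, 6.47 in B4 and 6.83 in C3, against 4.71 to 4.85 in controls, and all 9 were called higher. B3 was highest for Ereg and for these markers, and B2 lowest for both. The same held for the mean of 7 fibroblast markers, at 9.25 in B3 and 8.63 in B2. Of these 7, 0 were called higher and 1 lower in acute colitis. Within groups, Ereg had r = 0.82 with the neutrophil mean, 0.72 with the fibroblast mean and 0.68 with that of monocytes and macrophages. Of 8 monocyte and macrophage markers, 7 rose and 1 fell (list mean 6.94 to 8.78 in acute colitis, 6.49 to 6.86 in controls). All 6 smooth muscle markers fell (list mean 9.42 to 10.50 in acute colitis, 11.30 to 11.72 in controls). In whole tissue, fewer cells of a type and less RNA per cell cannot be told apart, and the part of the changed cell composition in the values of Ereg was not tested. After 1 cycle the neutrophil mean was 5.39 to 5.82, and 3 of the 9 markers were called lower than in acute colitis. Of 5 B and plasma cell markers, 0 were called higher and 1 lower in acute colitis against control, and all 5 were higher after 1 cycle. Of 9 mast cell markers, 0 were called higher and 1, Kit, lower in acute colitis (median log2 fold change of the list 0.13). After 1 cycle, 2 of them were higher. Of 5 T cell markers, 4 were called higher in acute colitis and 4 after 1 cycle. Over all probe sets, 22.9% were called in acute colitis and 6.93% after 1 cycle, each against control, and 5.74% for 1 cycle against acute colitis.

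**Figure D2:**
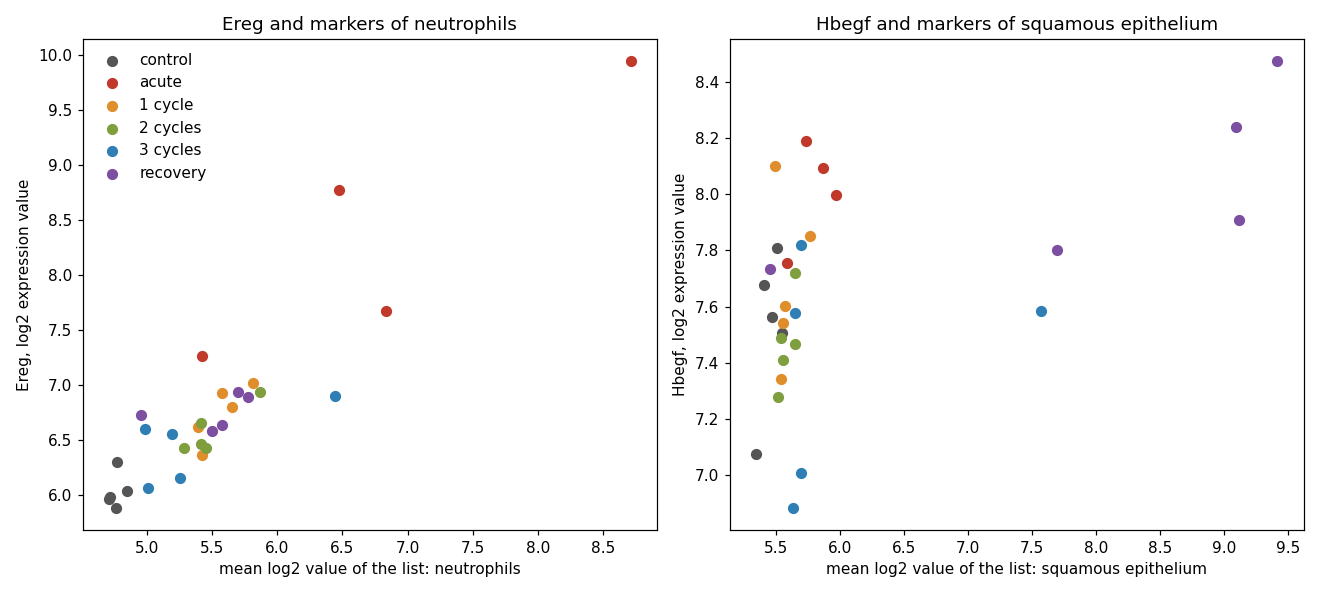
Left, log2 value of Ereg (y axis) against the mean log2 value of 9 neutrophil markers (x axis), and right, Hbegf against the mean of 11 squamous epithelium markers, with 1 point per array coloured by group. The acute arrays reach 8.71 for the neutrophil mean and 9.94 for Ereg, and 4 recovery arrays lie between 7.70 and 9.42 for the squamous mean. G3, after 3 cycles, lies at 7.57 for the squamous mean.

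Hbegf, the heparin-binding ligand made by epithelial cells, macrophages and other cells, was highest in acute colitis and after recovery, without a call in either. Its log2 values were 7.76, 8.09, 7.995 and 8.19 in acute colitis, against 7.08, 7.51, 7.56, 7.81 and 7.68 in controls. The highest control lay just above the lowest acute array. The log2 fold change was 0.48 (95% interval 0.10 to 0.86, adjusted p = 0.0606 by limma), and it was called (adjusted p = 0.0381 to 0.0491) with any 1 of B2, F1, G2, L1 or M1 left out.

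After recovery the log2 values of Hbegf were 8.47 in M1, 8.24 in M3, 7.73 in M5, 7.80 in N2 and 7.91 in N3, against 7.47, 7.28, 7.72, 7.49 and 7.41 after 2 cycles. Every recovery array was above every 2-cycles array, though the lowest and the highest differed by little. How many of all probe sets lacked overlap here was not counted. Recovery exceeded 2 cycles by 0.56 on the log2 scale (95% interval 0.20 to 0.92), which did not pass (adjusted p = 0.267 by limma). None of the 8 genes was called in this comparison, and 0.279% of all probe sets were, or 0.161% by the stricter rule. At an unadjusted p under 0.05 there was 1 of the 8, and 8.7% of all probe sets. Within the high arrays the log2 fold change was 0.49 (adjusted p = 0.782).

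Against control, Hbegf was higher by 0.50 after recovery (95% interval 0.15 to 0.86, adjusted p = 0.0558). Left out singly, each of F1, G2, K1, L1 and M5 gave a call (adjusted p = 0.0376 to 0.0482), while with the 2 sets of arrays as a covariate the difference was 0.34 (standard error 0.26, adjusted p = 0.697). In the cycle groups Hbegf stayed near controls, with 7.34 to 8.10 after 1 cycle, 7.28 to 7.72 after 2 cycles and 6.89 to 7.82 after 3 cycles. The squamous epithelium list moved with the recovery group: 10 of its 11 markers were called higher than in controls and 8 higher than after 2 cycles. Its mean was 9.42 in M1, 9.10 in M3, 5.46 in M5, 7.70 in N2 and 9.12 in N3, and M1 and M5 were highest and lowest for both Hbegf and this list. Over the 29 arrays, Hbegf had r = 0.52 with the list mean, and r = 0.41 within groups. G3, after 3 cycles, had a list mean of 7.57 with 7.58 for Hbegf, within the 6.89 to 7.82 of its group. The acute arrays had list means of 5.59 to 5.97 with 7.76 to 8.19 for Hbegf. The part of squamous epithelium in the Hbegf values was not tested.

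Tgfa encodes transforming growth factor alpha, an EGF receptor ligand made by enterocytes. Its log2 values were 8.10, 7.99, 7.89 and 7.87 in acute colitis, against 7.66, 7.67, 7.74, 7.67 and 7.83 in controls. The groups did not overlap, by a narrow margin. Tgfa rose 1.19-fold, by 0.25 on the log2 scale with a standard error of 0.08 (adjusted p = 0.0324 by limma). The call was lost with any 1 of A1, A2, L1, B2 or B3 left out (adjusted p = 0.0618 to 0.102). It held within the low arrays (log2 fold change 0.33, adjusted p = 0.0314). Later values spread from 7.62 to 7.85 after 1 cycle, 7.64 to 7.93 after 2 cycles, 7.66 to 8.07 after 3 cycles and 7.72 to 8.06 after recovery, and the log2 fold changes against control were 0.06, 0.06, 0.16 and 0.17, none of them called.

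Btc and Egf gave no call in any of the 8 comparisons, and both had values close to the array medians, with no background level in the files to judge them by. Btc, which encodes betacellulin, ranged from 5.89 to 6.49 in acute colitis, against 6.19 to 6.44 in controls (log2 fold change -0.17, adjusted p = 0.313). Its log2 values were 5.93 to 6.53 in the remaining groups. Egf, which encodes the founding ligand of the family, was 5.92, 5.70, 5.99 and 5.59 in acute colitis, against 5.76, 6.42, 6.24, 6.39 and 5.93 in controls. The lowest acute arrays were below all controls and the others among them, and the log2 fold change of -0.35 (95% interval -0.61 to -0.08) had an adjusted p of 0.0557 by limma. Egf was called in acute colitis with any 1 of 6 arrays left out (A1, L2, B2, B4, E3 or G2, adjusted p = 0.013 to 0.0488) and in 6 of 10 other settings, with a lowest adjusted p of 0.0364.

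**Figure D3:**
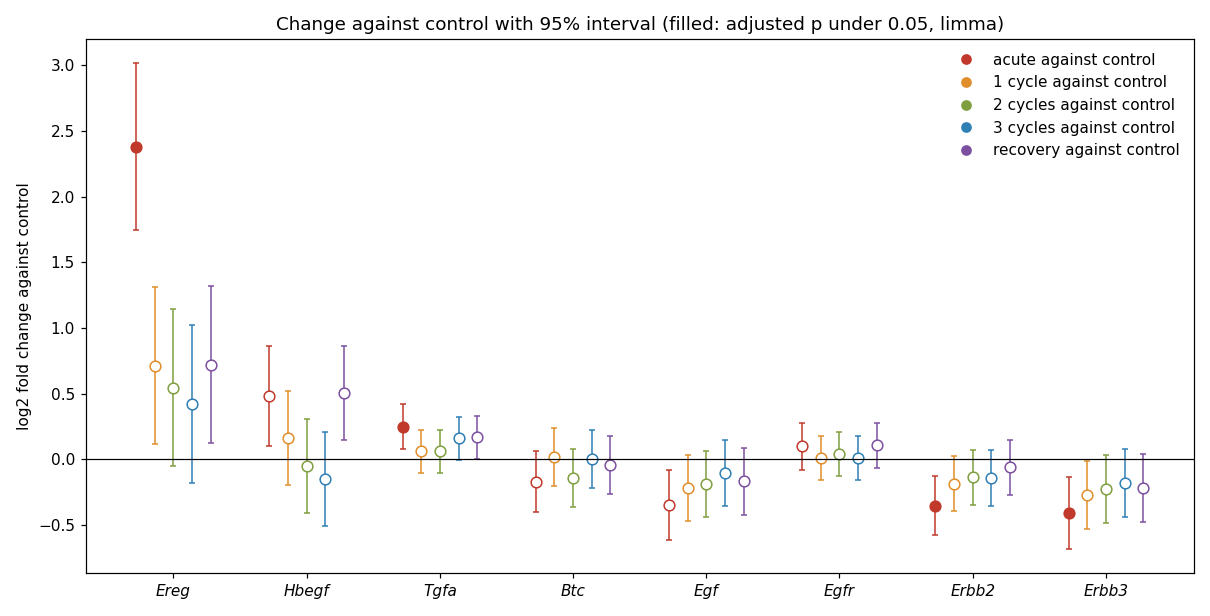
Log2 fold change against control (y axis) of the 8 genes (x axis) in acute colitis, after 1, 2 and 3 cycles and after recovery, with 95% intervals from limma and filled points where the adjusted p was under 0.05. Ereg in acute colitis, at 2.38, stands above the others, and every interval of Egfr includes 0.

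Of the receptors, Erbb2 and Erbb3 fell in acute colitis, while Egfr gave no call in any of the 8 comparisons. Egfr was 8.53, 8.75, 8.47 and 8.88 in acute colitis, against 8.33, 8.71, 8.56, 8.58 and 8.60 in controls. The log2 fold change was 0.10 (95% interval -0.08 to 0.28, adjusted p = 0.456 by limma). In the other groups Egfr differed from controls by 0.01 after 1 cycle, 0.04 after 2 cycles, 0.01 after 3 cycles and 0.11 after recovery, and the intervals of these differences lay between -0.16 and 0.27.

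Erbb2, the partner receptor without a ligand, was 8.98, 9.05, 8.86 and 9.23 in acute colitis, against 9.40, 9.37, 9.52, 9.39 and 9.23 in controls. The highest acute array and the lowest control met at 9.23, and the others did not overlap. Erbb2 was 1.28-fold lower, at -0.35 on the log2 scale with a standard error of 0.11 (adjusted p = 0.0187 by limma). Erbb3, the neuregulin receptor, was 10.17, 10.27, 9.78 and 10.15 in acute colitis, against 10.47, 10.53, 10.72, 10.43 and 10.35 in controls. Every acute array was below every control. Erbb3 was 1.33-fold lower, with a log2 fold change of -0.41 and a standard error of 0.13 (adjusted p = 0.0262). Both calls were lost without A5 (adjusted p = 0.052 for Erbb2 and 0.0755 for Erbb3), without B4 (adjusted p = 0.0866 and 0.146 in that order) and within the low arrays. There Erbb2 was at -0.37 on the log2 scale (adjusted p = 0.105) and Erbb3 at -0.28 (adjusted p = 0.236), with 2 acute arrays in the fit.

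The 2 receptors kept to intermediate values later. Erbb2 averaged 9.20 ± 0.08 after 1 cycle, 9.25 ± 0.28 after 2 cycles, 9.24 ± 0.14 after 3 cycles and 9.32 ± 0.13 after recovery, against 9.38 ± 0.11 in controls (SD, n = 5 each). Erbb3 averaged 10.23 ± 0.11, 10.27 ± 0.28, 10.32 ± 0.20 and 10.28 ± 0.24 in the same groups, against 10.50 ± 0.14 in controls (SD, n = 5 each). None of these differences was called. Markers of colon epithelium were set beside them in acute colitis. The mean of the 11 markers was 11.54 in B2, 11.44 in B3, 10.84 in B4 and 11.32 in C3, against 11.47 to 11.59 in controls. Of these markers, 3 fell, 1 rose and 7 were not called, where 22.9% of all probe sets were called. Aqp8, a water channel of the colonic surface, fell by 1.91 on the log2 scale, Slc26a3, a chloride exchanger there, by 1.25, and Cdh1, the epithelial cadherin, by 0.24. Krt20, a keratin of mature epithelium, rose by 0.54. Krt8 and Epcam, a keratin and an adhesion molecule of the epithelium, were at 0.03 and -0.07 without a call. B4 was lowest for Erbb2, Erbb3 and the epithelial list. B2 was the highest acute array for the list, and its 8.98 for Erbb2 and 10.17 for Erbb3 were below every control. Over the 29 arrays, r with the list mean was 0.49 for Erbb2 and 0.62 for Erbb3. Within groups it was 0.39 and 0.58 in that order. Whether the share of epithelial cells changed, and its part in the receptor values, was not tested.

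Across the 8 genes, the comparisons of the cycle and recovery groups with control gave 0 calls in limma's fit of all groups. At an unadjusted p under 0.05 there were 2 after 1 cycle, 0 after 2 cycles, 0 after 3 cycles and 3 after recovery. At the same unadjusted threshold stood 19.4% of all probe sets after 1 cycle, 19.1% after 2 cycles, 32.4% after 3 cycles and 27.5% after recovery. With adjustment, 6.93% of all probe sets were called after 1 cycle, 5.59% after 2 cycles, 18.1% after 3 cycles and 12.7% after recovery. By the stricter rule these shares were 1.06% after 1 cycle, 1.03% after 2 cycles, 1.62% after 3 cycles and 1.64% after recovery. No member was called between 3 cycles and 1 cycle either, where 1.77% of all probe sets were called and 0.121% by the stricter rule. At an unadjusted p under 0.05 there were 0 of the 8, and 18.5% of all probe sets.

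Patterns over the 29 arrays were compared with those of 19937 other genes by Pearson correlation, as a description in which the arrays share tissue composition. The genes most like Ereg were Cemip (r = 0.96), which encodes a hyaluronan-degrading protein, and Ccl2 (r = 0.94), a chemokine that attracts monocytes. Erbb2 was closest to Grb7 (r = 0.95), which encodes an adaptor that binds ErbB2, and next to Erbb3 (r = 0.89). Within groups, after each group's mean was taken away, Erbb2 and Erbb3 still had r = 0.89. Erbb3 was closest to Zfyve1 (r = 0.90) and then to Erbb2. The genes nearest to the others had lower values: Myo19 (r = 0.84) and Abcc3 (r = 0.78) for Tgfa, Clvs2 (r = 0.79) and Lrrc4c (r = 0.72) for Btc, and Plaat1 (r = 0.74) and Agbl2 (r = 0.72) for Egf. For Hbegf they were Sh3bp4 (r = 0.73) and Krt80 (r = 0.71), and for Egfr Fndc3b (r = 0.72) and Adam9 (r = 0.66), a membrane metalloprotease.

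The remaining genes of the pathway were taken from 6 lists, with 79 of 84 genes analysed here. In acute colitis against control, 22.9% of all probe sets were called (11.4% higher and 11.6% lower), the share to set beside each list. Among 6 other ErbB ligands and receptors, 2 rose in acute colitis and 4 were not called. Epgn, the neighbour of Ereg that encodes epigen, was 5.24, 6.60, 5.78 and 5.56 in acute colitis, against 4.75 to 5.06 in the 5 controls. As for Ereg, B3 was highest and B2 lowest of the acute arrays. The log2 fold change of Epgn was 0.88 (standard error 0.18, adjusted p = 0.000683 by limma). Nrg1 encodes neuregulin 1, a ligand of ErbB3 and ErbB4. Its log2 values were 7.55, 8.83, 7.83 and 7.41 in acute colitis, against 6.75, 6.92, 6.31, 6.73 and 6.72 in controls, and these did not overlap. Nrg1 rose by 1.22 in acute colitis (2.33-fold, adjusted p = 5.3e-05), by 0.72 after 3 cycles (adjusted p = 0.00893) and by 0.62 after recovery (adjusted p = 0.0308), and was lower after 1 cycle than in acute colitis (log2 fold change -0.69, adjusted p = 0.038).

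Among 12 genes of ligand shedding, 4 rose and 3 fell in acute colitis (median log2 fold change 0.11, against 0.04 over all probe sets). Mep1a, a brush-border metalloprotease subunit, had a log2 fold change of -1.75 (adjusted p = 0.0048). Adam8, a protease of myeloid cells, rose by 0.99, and Rhbdl2, a rhomboid protease, fell by 0.59. Rhbdl2 was called lower than control in all 5 DSS groups, at -0.57 after 1 cycle, -0.33 after 2, -0.44 after 3 and -0.55 after recovery on the log2 scale. Adam17, the main sheddase of Tgfa, Hbegf and Ereg, and Rhbdf2, which helps ADAM17 to the cell surface, rose by 0.47 and 0.48 (both named after their values were seen).

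Of 16 feedback inhibitors of the receptor and of ERK, 2 rose and 7 fell in acute colitis (median log2 fold change -0.13). Socs3, an inhibitor induced by STAT3, rose by 2.17 (adjusted p = 2.1e-06), and Ptpn1, a phosphatase that acts on the EGF receptor, by 0.83. Lrig3 had a log2 fold change of -0.95. Socs3 was also called higher after 2 cycles (0.88), 3 cycles (0.83) and recovery (0.78), on the log2 scale, and after 1 cycle its log2 fold change was 0.82 (adjusted p = 0.0509 by limma). Of 17 signal transducers measured, 6 rose and 6 fell, with a median log2 fold change of -0.02. Gab1, a docking protein of the receptor, and Pik3r1, the regulatory subunit of PI3 kinase, had log2 fold changes of -0.88 and -0.64. Stat3 rose by 0.48 in acute colitis and was called higher than control in all 5 DSS groups, at 0.26, 0.32 and 0.24 after 1, 2 and 3 cycles and at 0.32 after recovery.

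Of 14 genes that ERK signalling can induce, 10 rose and 0 fell in acute colitis, with a median log2 fold change of 0.63. Mmp3, which encodes stromelysin 1, rose by 3.42 (adjusted p = 2.6e-05), Ptgs2, which encodes cyclooxygenase 2, by 1.54, and Plaur, the urokinase receptor, by 1.51. These genes respond to other inflammatory signals too. Egr1 and Fos, immediate early genes of the same list named after their values were seen, were at 0.09 and -0.42 without a call. Of the 14, 1 was called higher after 1 cycle, 0 after 2 cycles, 1 after 3 cycles and 4 after recovery, and 5 were called lower after 1 cycle than in acute colitis. Over all probe sets, in either direction, 6.93% were called against control after 1 cycle, 5.59% after 2 cycles, 18.1% after 3 cycles and 12.7% after recovery. For 1 cycle against acute colitis the share was 5.74%.

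Of 14 other growth factors and receptors of the mucosa, 4 rose and 3 fell in acute colitis (median log2 fold change 0.05). Il11, a stromal cytokine, rose by 2.14, and Hgf, the ligand of the receptor Met, by 0.99. Fgf1 had a log2 fold change of -1.08. Igf1, a stromal growth factor, was called higher than control in all 5 DSS groups, at 0.56 in acute colitis, 0.67, 0.89 and 0.93 after 1, 2 and 3 cycles and 0.76 after recovery. Tff3, the trefoil peptide of goblet cells, was lower after recovery than after 2 cycles (log2 fold change -0.65, adjusted p = 0.0119).

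**Figure D4:**
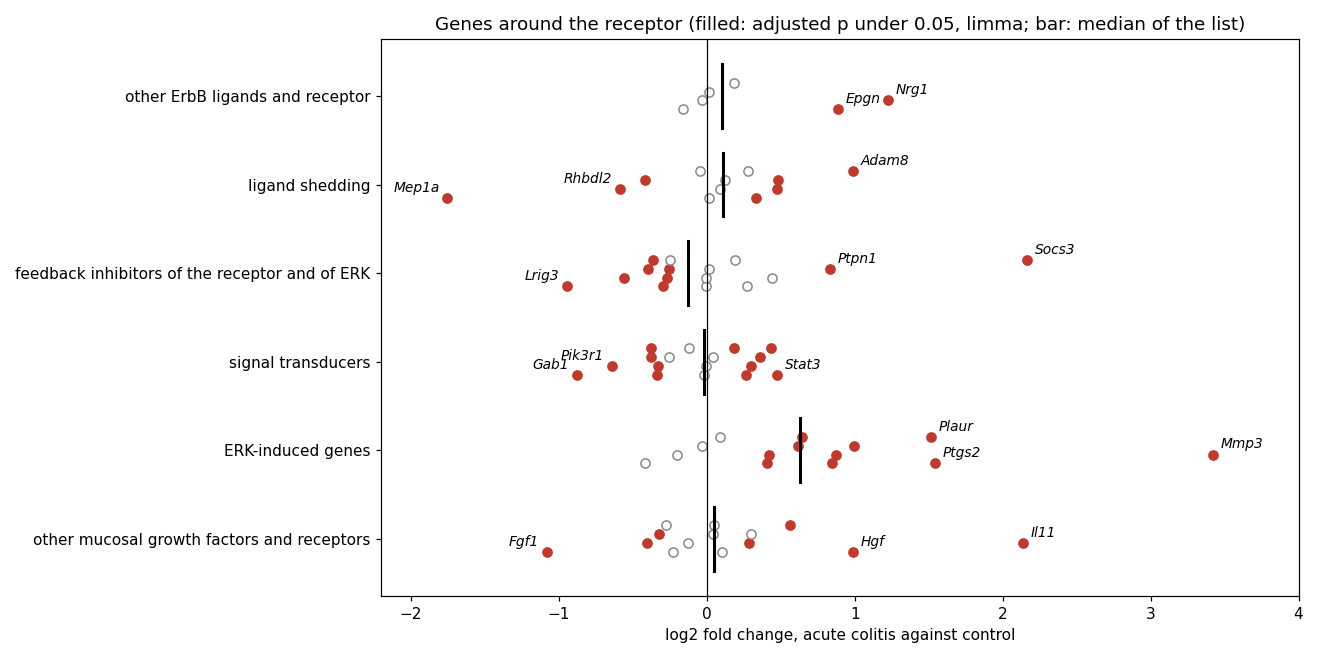
Log2 fold change in acute colitis against control (x axis) of 79 genes in 6 lists (rows), with 1 point per gene, filled where the adjusted p was under 0.05, and a bar at the median of each list. The median of the ERK-induced genes is at 0.63, and the up to 3 called genes with the largest change in each list are named.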

How the data were processed

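Total RNA of snap-frozen colon from 29 mice was hybridized to Affymetrix Mouse Gene 1.0 ST arrays. The authors processed the scans with RMA (background correction, quantile normalization and probe summary, R 2.12.2) and deposited log2 values, 1 for each probe set of an array, from 1.93 to 13.97. These values were used as deposited. The files hold no probe signals or background, so the number of arrays limits the precision. Groups were taken from the labels, and letters and digits such as A1 name the mice. Gene symbols come from GEO's annotation of the array: 21789 probe sets had 1 symbol, 1621 several and 12101 none. Promoters and gene order are RefSeq's (GRCm38.p6).

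Groups were compared with limma 3.58.1 in R 4.3.3, with Benjamini-Hochberg adjustment over 35511 probe sets. The limma step was tested on simulated data. The members and lists were chosen with earlier results of these data known. Named were the members, up to 3 called genes of each list with the largest change, Epgn, and the 2 genes most like each member.

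Alternatives were fitting only the groups compared, array weights, a trended and robust prior, no dim probe sets (19729 kept), single-symbol probe sets only, quantile normalization again, centring of arrays, the letter of the label as a random block (correlation -0.07), a fold above 2, the 2 sets of arrays as a covariate, and each array left out. Fits within the low or the high arrays were added after seeing the data.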

Additional observations from a re-analysis of the deposited data

Results flagged for a closer look

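The log2 values of the 8 genes were examined for a single array far from the rest in 48 groups of 4 or 5 arrays. Chance marks about 1 in 20 of these, and 4 were marked. The marks are D4 and F3, each for both Erbb2 and Erbb3. Values of these genes correlated within groups (r = 0.89), so the 4 marks are not independent. After 2 cycles, D4 had 8.76 for Erbb2, where the next array had 9.29 and the highest 9.45. D4 also had 9.79 for Erbb3, where the next array had 10.33 and the highest 10.50. After 3 cycles, F3 had 9.50 for Erbb2, where the next array had 9.21 and the lowest 9.16, and 10.68 for Erbb3, where the next had 10.28 and the lowest 10.17. The mean of 11 colon epithelium markers was 11.26 in D4, within the 11.22 to 11.52 of its group, and 11.54 in F3, within 10.99 to 11.68.

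The effect of DSS on Ereg against the same controls differed between acute colitis and 1 cycle in the fit of all groups. The difference was -1.67 on the log2 scale for 1 cycle against acute colitis (adjusted p = 0.00172 by limma). It was not called with only these 2 groups in the fit (adjusted p = 0.149) or within the low arrays (adjusted p = 0.146).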

How the results depend on the processing

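Of the 8 genes, 4 were called in acute colitis against control, and 2 with array weights, 1 with a fold above 2 and 2 within the low arrays, but 6 each without dim probe sets, with single-symbol probe sets and with the letter block, and 5 with quantile normalization. The array left out moved this count between 2 and 6. Shares of all probe sets called are given above for the main fit and the fold above 2. They are also given for fits of the compared groups after 1 cycle, 2 cycles and recovery against control. For the other settings no such share is given, so their counts are not read as results about the 8 genes. After 1 cycle against control, 0 were called, and 1 in the fit of the compared groups and 1 with array weights. After 2 cycles, 0 were called, and 1 in the fit of the compared groups. After recovery against control, 0 were called, and 1 each in the fit of the compared groups, with array weights, without dim probe sets, with single-symbol probe sets and with the letter block. With 1 array left out, the count was 0 to 1 after 1 cycle and 0 to 1 after recovery. For 1 cycle against acute colitis, 1 was called, and 0 in the fit of the compared groups and 0 within the low arrays. The low arrays hold fewer samples, and other causes were not tested. With the 2 sets of arrays as a covariate, with the trended prior, with quantile normalization and with centring, the counts stayed within 1.5 times. Besides arrays left out, single genes gained a call 17 times and lost one 9 times, and no called value changed direction. The Tgfa call was also lost in the fit of the compared groups (adjusted p = 0.0602), with array weights (0.0668) and with centring (0.0615), and the Erbb2 and Erbb3 calls with array weights (0.0544 and 0.0501). Hbegf in acute colitis was called without dim probe sets (adjusted p = 0.0405), with single-symbol probe sets (0.0423) and with the letter block (0.0402), and Egf in 6 of 10 settings. A mean over several probe sets was not run, since each gene has 1 with a single symbol. Recovery or 3 cycles against control could not be fitted within either set of arrays. No paired analysis was possible because each mouse has its own label and belongs to 1 group.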
